A study of Mus musculus with 6 samples.

Results

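The data describe 48 genes that license, fire and copy replication origins, or that supply the DNA building blocks, in mouse ATDC5 cells. They were taken by gene symbol from a list of the replication machinery that was drawn up with fold changes of these libraries known, and all 48 are among the 16880 genes of the deposited expression table. ATDC5 is a chondrogenic cell line. One group, called IL-1β here, received the inflammatory cytokine IL-1β at 10 ng/mL, and the other received IL-1β at 10 ng/mL plus NP-G2-044 at 10 μM, a small molecule that inhibits the actin-bundling protein Fascin1. Each group has 3 libraries, and the methods give a treatment of 24 h. Both groups carry IL-1β, so every value sets cytokine plus inhibitor against cytokine alone. The series holds no samples without IL-1β. The sample titles and protocol name NP-G2-044, the treatment tag of the same samples reads NP-G2-047, and the methods speak of chondrocytes where the labels name the cell line.

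DNA replication starts with licensing. The origin recognition complex and the loader proteins Cdc6 and Cdt1 place the ring-shaped MCM helicase on DNA, and geminin, encoded by Gmnn, binds Cdt1 and blocks a second round of loading. In S phase the kinase Cdc7 with its partner Dbf4 fires the loaded origins, Cdc45 and the GINS complex join MCM to form the active helicase, and the polymerases, clamp and ligase at the fork copy both strands. Ribonucleotide reductase, thymidylate synthase and thymidine kinase provide deoxynucleotides, and transcription of many of these genes is raised by activator E2F proteins and lowered by the repressors E2F7 and E2F8.

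The 3 IL-1β libraries held 16615824 to 16878164 estimated reads each, those that also received the inhibitor held 17529844 to 17735860, and no library stood nearer to the other group than to its own. Between libraries of one group, squared count differences averaged 1.54 to 2.39 times what sampling of reads gives, against 133 to 136 times between groups. The methods call the libraries biological replicates without describing the cultures, and p-values measure the spread between these samples only. Of 10 chondrocyte markers 6 are listed, Matn1 is at 0 in all libraries, the cartilage collagen gene Col2a1 had 10 to 12 reads per IL-1β library and 1 to 3 with the inhibitor, and the cartilage regulator Sox9 stood at 5.94 to 7.21 TPM and 11.3 to 11.4 TPM (transcript abundance scaled by gene length and library). Of the 4 chondrocyte markers tested, Col2a1 and Sox5 fell past both cutoffs and none rose past them, Sox5, a partner of Sox9, from 10.2 to 10.3 TPM down to 2.03 to 2.52 TPM. The summed level of the chondrocyte list was 16.7 to 17.9 TPM with IL-1β and 13.5 to 14.4 TPM with the inhibitor. Of the 6 fibroblast markers 4 were tested, 3 fell and 1 rose past both cutoffs, and their sum went from 21.4 to 23.3 TPM down to 12 to 12.7 TPM. Of 4 listed macrophage markers only Cd68, a lysosomal protein gene, was tested and rose, taking the summed level from 11.3 to 14.3 TPM up to 124 to 135 TPM, while the leukocyte gene Ptprc was at 0 throughout. The 4 endothelial markers summed to at most 0.55 TPM in any library. The part of these marker changes in the results below was not tested.

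Of the 10 licensing genes with a promoter entry, 7 carry E2F words there. These words are shown before the values because they are a feature of the genes themselves and not of these libraries. In the RefSeq promoter table of build GRCm38.p6, windows of 300 bases run from 250 before to 50 after each transcript start, and 39 of the 48 genes have at least 1 window. The missing entries are Gmnn, Mcm4, Gins1, Gins2, Gins4, Prim2, Pole, Rfc2 and Ccne2. The words TTTCCCGC, TTTGGCGC, TTTCGCGC and TTTGCCGC, spellings of the E2F site, were searched on both strands, and they can overlap each other. At least 1 of them is in a window of 15 of the 39 genes (38.5%), of 5% of the 9635 tested genes with a window, and in 2.26% of all 32851 windows. By role the share was 7 of 10 licensing genes (Orc1, Cdc6, Cdt1, Mcm3, Mcm5, Mcm6 and Mcm7), 1 of 5 firing genes (Gins3), 6 of 15 fork genes (Pola1, Pold1, Pold3, Pole2, Rfc3 and Lig1), 0 of 5 nucleotide supply genes and 1 of 4 E2F and cyclin E genes (E2f2). A match is a description of letters and not evidence of a bound factor. A window without a match can hold an E2F site spelled otherwise.

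Stretches with E2F words are given for 5 licensing genes, each upstream of the RefSeq transcript start of its window. They run 5′ to 3′ on the strand of the gene, with the words in capitals. They lie at chr8:75109336-75109387 (plus strand) for Mcm5, chr1:128359725-128359835 (minus) for Mcm6, chr5:138172021-138172068 (minus) for Mcm7, chr4:108579407-108579453 (plus) for Orc1 and chr11:98907993-98908040 (plus) for Cdc6. Mcm5 has 2 words and Mcm6 has 3, and in both genes words on opposite strands overlap and are printed as one run. Mcm7 has a further word centred 20 bases after the RefSeq start, which is not printed. By GENCODE positions the Cdc6 and Mcm7 stretches lie inside the gene, and the Orc1 stretch spans the gene start.
Mcm5: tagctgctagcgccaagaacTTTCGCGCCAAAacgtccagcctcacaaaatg
Mcm6: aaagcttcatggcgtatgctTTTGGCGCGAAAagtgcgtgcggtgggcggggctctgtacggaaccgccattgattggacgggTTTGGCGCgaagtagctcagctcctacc
Mcm7: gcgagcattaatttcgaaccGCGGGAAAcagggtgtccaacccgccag
Orc1: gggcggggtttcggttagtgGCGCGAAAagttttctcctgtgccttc
Cdc6: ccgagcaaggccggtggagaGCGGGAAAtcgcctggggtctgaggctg

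For contrast, the windows of both ribonucleotide reductase genes hold none of the E2F words searched but do hold the CCAAT word, capitalized here. It occurs 2 times in Rrm1 at chr7:102441584-102441674 (plus strand) and 1 time in Rrm2 at chr12:24708184-24708228 (plus). The Rrm1 stretch also holds TTCCCGC, which is the E2F word TTTCCCGC without its first letter. Such shorter or other spellings were not searched.
Rrm1: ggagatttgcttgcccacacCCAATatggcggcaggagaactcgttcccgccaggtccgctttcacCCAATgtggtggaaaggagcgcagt
Rrm2: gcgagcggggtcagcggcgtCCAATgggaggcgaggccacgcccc
CCAAT was found in 22 of the 39 genes (56.4%) and in 44.2% of tested genes with a window. The word TTTGAA, the core of the cell cycle homology region, was found in 9 of the 39 (23.1%), 4 of them among the 5 firing genes with a window, and in 14.2% of tested genes.

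Across the 48 genes, 43 fell and 4 rose with NP-G2-044. The criterion was edgeR's quasi-likelihood test over 11983 genes with an adjusted p under 0.05, which 80.0% of all tested genes passed, 39.8% lower and 40.2% higher. Mcm7 alone did not pass. As shares of library reads the groups did not overlap for 47 of the 48 genes, 43 lower and 4 higher, as for 80.8% of all tested genes, 40.3% lower and 40.5% higher. Past both cutoffs, which also ask for a log2 fold change above 1 in size, 8 genes were lower and 1 was higher, where 16.6% of all tested genes passed, 10.1% lower and 6.48% higher. The genes were chosen with results of this comparison known, so these counts and the fold changes below are a description, and no p is given for a single member. All 48 passed the filter on low counts, with at least 97 reads in every library. Their median level with IL-1β was 71.8 TPM, above the 22.2 TPM median of all tested genes, and their median log2 fold change was −0.55 against 0.0018 for all tested genes. Fewer cells in S phase and less of these transcripts per cell cannot be told apart in bulk RNA. The exons of 15 of the 48 genes share bases with a gene on the opposite strand. No source used here says if reads were counted by strand, so overlaps of several named genes, but not all, are stated beside their values.

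**Figure D1:**
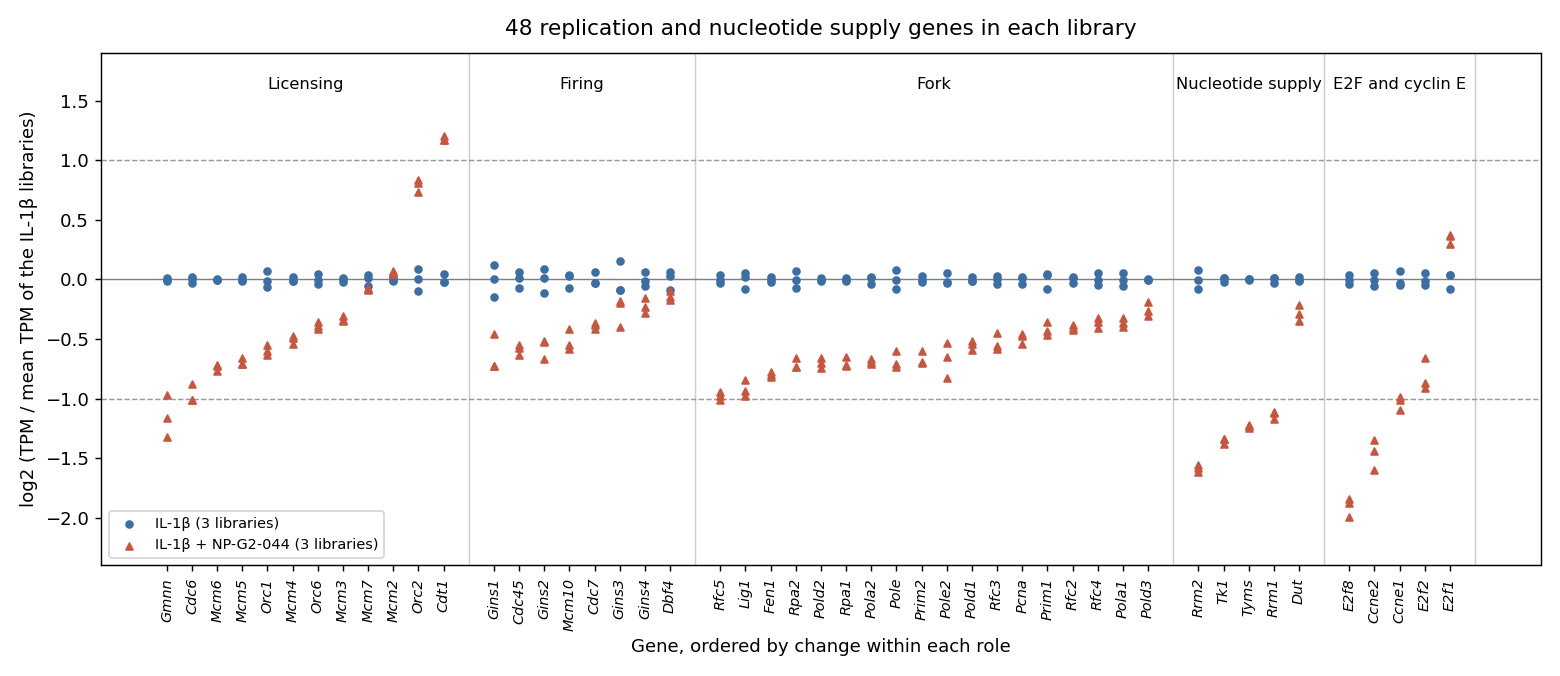
Each gene's TPM in each library relative to the mean of its IL-1β libraries, on a log2 axis, grouped by role; circles are the 3 IL-1β libraries, triangles the 3 libraries with NP-G2-044, and dashed lines mark 1 and −1. The nucleotide supply genes other than Dut sit below −1, the fork genes lie between 0 and about −1, and Cdt1 lies above 1.

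The genes of nucleotide supply were the most reduced of the roles. All 5 fell, 4 of them past both cutoffs, and their median log2 fold change was −1.19. Rrm2 encodes the small subunit of ribonucleotide reductase, the enzyme that makes deoxynucleotides and whose small subunit is normally made in S phase. It stood at 90.5, 85.7 and 96 TPM in the IL-1β libraries and at 29.6, 30.3 and 30.8 TPM with the inhibitor. The groups were far apart, with a log2 fold change of −1.55 (standard error 0.0444), or 2.94-fold lower. Rrm1, the large subunit, stood at 125, 129 and 129 TPM with IL-1β and at 58.5, 56.6 and 59 TPM with the inhibitor. Its log2 fold change was −1.10 (standard error 0.03), a smaller fall than that of its partner. The ratio of Rrm1 to Rrm2 in TPM therefore went from 1.34 to 1.5 with IL-1β up to 1.87 to 1.97 with the inhibitor, without overlap.

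Both routes to thymidylate were lower. Tk1, the cytosolic thymidine kinase of the salvage route, stood at 256, 262 and 262 TPM with IL-1β and at 102, 99.6 and 103 TPM with the inhibitor. This was the most abundant gene of the role in both groups, and its log2 fold change was −1.38 (standard error 0.0343). Tyms, the thymidylate synthase of the de novo route, stood at 45.3, 45.2 and 44.9 TPM and at 19.3, 19.3 and 19 TPM. Its libraries were nearly identical within each group, and its log2 fold change was −1.19 (standard error 0.0402). Dut, which hydrolyses dUTP and keeps uracil out of DNA, was the exception in size. It stood at 59.5, 59.3 and 60.6 TPM with IL-1β and at 47, 51.6 and 48.8 TPM with the inhibitor, a log2 fold change of −0.25 (standard error 0.0411). Summed over the 5 genes, the level was 583 ± 8.07 TPM under IL-1β and 258 ± 1.98 TPM under the combination (SD, n = 3 each), which is a ratio of 0.443.

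**Figure D2:**
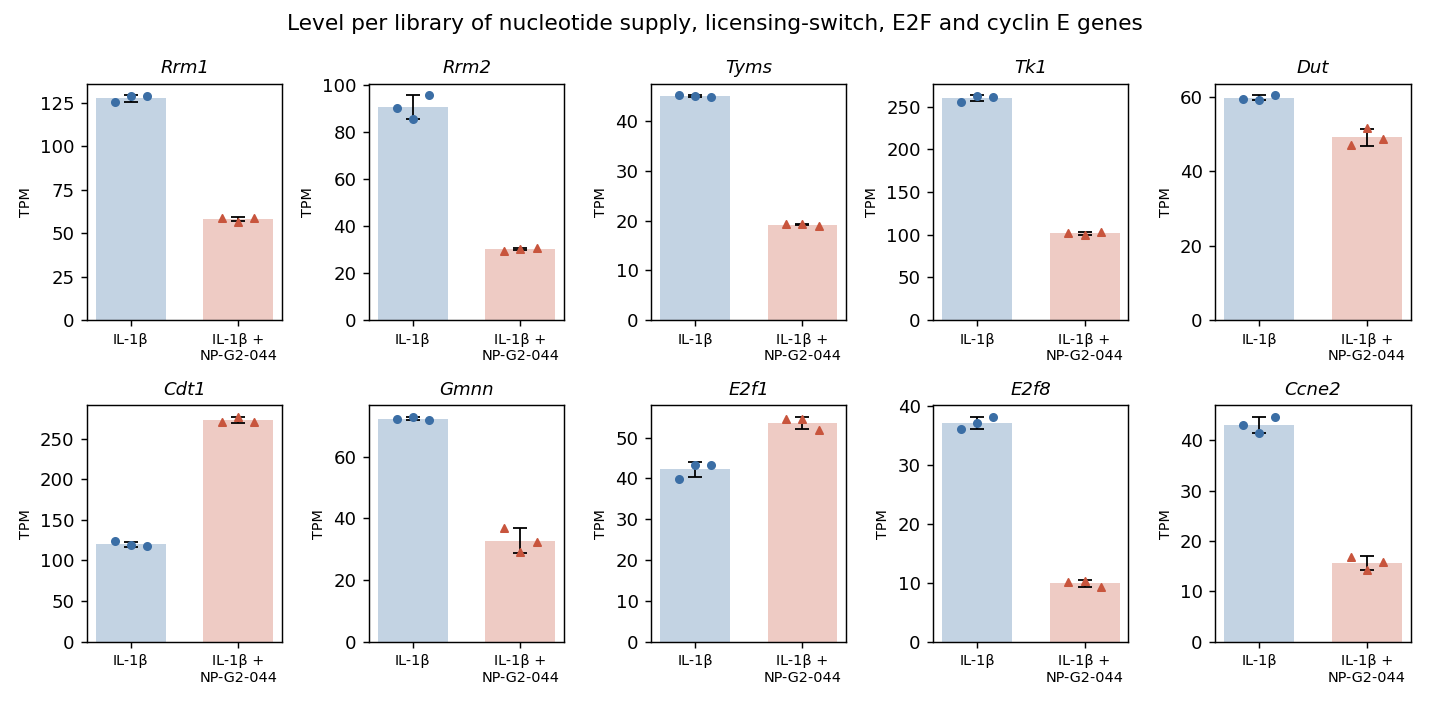
TPM of 10 genes by group on axes that start at 0; bars are means of 3 libraries, error bars SD and points single libraries. Rrm1, Rrm2, Tyms, Tk1, Gmnn, E2f8 and Ccne2 are lower with NP-G2-044 in every library, Dut is lower by less, and Cdt1 and E2f1 are higher.

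The licensing genes moved in opposite directions. Of 12 genes 8 fell, 3 rose and Mcm7 did not pass, with a median log2 fold change of −0.41 and a range from −1.12 to 1.21. Cdt1, which loads the helicase, was the only member higher past both cutoffs. It stood at 124, 119 and 118 TPM with IL-1β and at 271, 277 and 270 TPM with the inhibitor, a log2 fold change of 1.21 (standard error 0.0307), or 2.32-fold higher. Gmnn, which encodes the geminin that inhibits Cdt1, went the other way. It stood at 72.2, 73 and 71.9 TPM with IL-1β and at 37, 29 and 32.4 TPM with the inhibitor, a log2 fold change of −1.12 (standard error 0.0701). The 3 inhibitor libraries of Gmnn were more scattered than the IL-1β ones, with an SD of 4.01 TPM against 0.562 TPM, and still did not reach them. The ratio of Cdt1 to Gmnn in TPM was 1.71, 1.62 and 1.64 with IL-1β and 7.32, 9.56 and 8.35 with the inhibitor.

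Cdc6, the partner of Cdt1 in loading, stood at 17.9, 18.6 and 18.3 TPM with IL-1β and at 9.94, 9.05 and 9.06 TPM with the inhibitor. Its log2 fold change was −0.93 (standard error 0.052), just short of the fold cutoff and opposite in sign to that of Cdt1. The subunits of the origin recognition complex split as well. Orc2 stood at 27.4, 29.4 and 31 TPM with IL-1β and at 52.1, 48.8 and 51.4 TPM with the inhibitor, a log2 fold change of 0.83 (standard error 0.04). Orc1, the cell-cycle-regulated subunit, had a log2 fold change of −0.51, and Orc6 one of −0.36. The exons of Orc2 share 1150 of 3857 bases with Nif3l1 on the opposite strand, and Nif3l1 itself had a log2 fold change of 0.05. The remaining subunit genes, which are no members, were all higher, Orc4 with a log2 fold change of 0.75, Orc3 with 0.25 and Orc5 with 0.10 (adjusted p = 4.46e-22, 1.53e-07 and 0.0266 from edgeR). Of the 6 subunit genes, 4 rose and 2 fell on the adjusted p, beside 40.2% higher and 39.8% lower among all tested genes.

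The 6 genes of the MCM ring, which the assembled helicase holds in equal number, did not move alike. Mcm6 had the largest fall, from 158, 157 and 157 TPM to 95.3, 92.3 and 95 TPM, a log2 fold change of −0.70 (standard error 0.0297). Mcm5 followed with −0.66, Mcm4 with −0.47 and Mcm3 with −0.30. Mcm2 and Mcm7 stayed near their IL-1β levels. Mcm2 stood at 137, 134 and 133 TPM with IL-1β and at 140, 142 and 139 TPM with the inhibitor, a log2 fold change of 0.09 (standard error 0.0288). It passed the test on counts but not limma on log2(TPM + 1), where the fold change was 0.06. Mcm7 stood at 242, 246 and 230 TPM with IL-1β and at 228, 227 and 226 TPM with the inhibitor. Its log2 fold change from counts was −0.03 (standard error 0.0289), so that the 95% range of about 2 standard errors to each side includes 0, while limma on log2(TPM + 1) gave −0.08 and put it below the adjusted p threshold. In TPM its groups lay side by side without overlap, and as shares of library reads they overlapped. The ratio of Mcm7 to Mcm6 went from 1.47 to 1.56 up to 2.37 to 2.45, and the highest subunit level over the lowest went from 2.44 to 3.58. Exons of Mcm7 share 321 bases with Ap4m1 and 64 bases with Cops6 on the opposite strand.

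**Figure D3:**
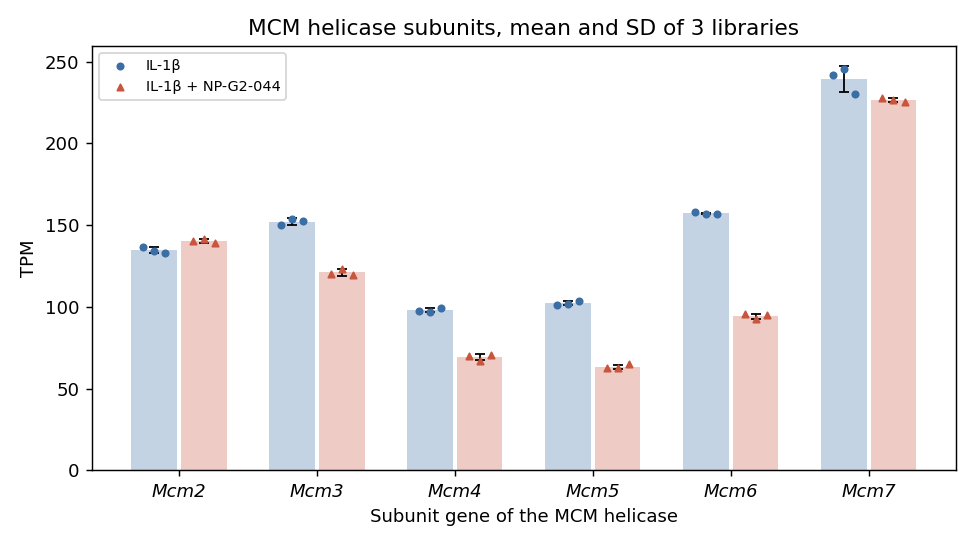
TPM of the 6 MCM subunit genes by group; bars are means of 3 libraries, error bars SD and points single libraries. Mcm3, Mcm4, Mcm5 and Mcm6 are lower with NP-G2-044, and Mcm2 and Mcm7 are close to their IL-1β levels.

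The 8 firing genes all fell, none past the fold cutoff, with a median log2 fold change of −0.42, and 2 of these calls rested on single libraries. Gins3 no longer passed the adjusted p without replicate 3 of IL-1β (log2 fold change −0.14) or without replicate 3 of the combination (−0.16), nor did Dbf4 without replicate 2 of IL-1β (−0.09) or of the combination (−0.09). Gins1, a subunit of the GINS complex that bridges helicase and polymerase, had the lowest read counts of all 48 genes. It stood at 19.4, 17.9 and 16.2 TPM with IL-1β and at 10.8, 10.8 and 13 TPM with the inhibitor, a log2 fold change of −0.66 with a wide standard error of 0.11. Cdc45 went from 57.2, 52.2 and 55.2 TPM to 36.8, 35.4 and 37.4 TPM, a log2 fold change of −0.56 (standard error 0.0462). The other GINS genes were uneven, with −0.54 for Gins2, −0.23 for Gins3 and −0.19 for Gins4. Exons of Gins2 share 2758 of 4097 bases with Gse1 on the opposite strand, whose log2 fold change was −1.42, and reads of the pair cannot be assigned without strand information. Mcm10, which helps to start DNA unwinding, had a log2 fold change of −0.48. The kinase gene Cdc7 had −0.36. Its activating partner Dbf4 was the least changed, at 67, 74.4 and 72.7 TPM with IL-1β and 66.8, 63.4 and 64.3 TPM with the inhibitor, a log2 fold change of −0.11 (standard error 0.0373).

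All 18 fork genes fell, none passed the fold cutoff, and the log2 fold changes ran from −0.95 to −0.23 with a median of −0.63. Rfc5, a subunit of the clamp loader, stood at 116, 110 and 112 TPM with IL-1β and at 55.9, 57.3 and 58.4 TPM with the inhibitor, a log2 fold change of −0.95 (standard error 0.0402). Its exons share 499 of 4669 bases with Wsb2 on the opposite strand, which had 0.78. The other small clamp loader subunits fell by less, with −0.50 for Rfc3, −0.37 for Rfc2 and −0.34 for Rfc4. Lig1, the ligase that seals Okazaki fragments, stood at 52.2, 57.2 and 56.1 TPM and at 30.7, 28.8 and 28.1 TPM, a log2 fold change of −0.89 (standard error 0.0408). Fen1, the nuclease that trims those fragments, followed with −0.76. Most of its exon bases (1909 of 2422) overlap a non-coding antisense gene, so its value could include reads of that gene.

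Pcna, the sliding clamp, was the most abundant of the 48 genes. It stood at 471, 491 and 488 TPM with IL-1β and at 348, 332 and 353 TPM with the inhibitor, a log2 fold change of −0.46 (standard error 0.0294). Among the 48 genes, the subunits within each polymerase were closer to each other than those of the MCM ring or the origin recognition complex. Polymerase subunits that are no members lay further apart. Pole4 of polymerase epsilon rose with 0.58, Pole3 fell with −0.33, and Pold4 of polymerase delta did not pass with 0.09. Pole and Pole2 of polymerase epsilon, the leading-strand enzyme, had −0.65 and −0.63. For polymerase alpha and primase, which start each strand, Pola2 had −0.66, Prim2 −0.64, Prim1 −0.39 and Pola1 −0.33. In polymerase delta, the lagging-strand enzyme, Pold2 had −0.67 and Pold1 −0.52. Its accessory subunit Pold3 was the least changed fork gene, at 23.1, 23.2 and 23.1 TPM with IL-1β and 20.3, 19.2 and 18.7 TPM with the inhibitor, a log2 fold change of −0.23 (standard error 0.0506). The single-strand binding genes Rpa1 and Rpa2 had −0.67 and −0.68.

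Among the E2F and cyclin E genes, 4 fell and E2f1 rose. E2f8, a repressor that closes E2F transcription late in S phase, had the largest change of all 48 genes. It stood at 36.1, 37.1 and 38.2 TPM with IL-1β and at 10.1, 10.3 and 9.31 TPM with the inhibitor. The log2 fold change was −1.88 (standard error 0.0503), or 3.69-fold lower. Exons of E2f8 share 610 of 5443 bases with Gm2788 on the opposite strand, for which no value was available. The activator E2f1 stood at 39.9, 43.4 and 43.2 TPM and at 54.5, 54.5 and 51.8 TPM, a log2 fold change of 0.38 (standard error 0.0397). The activator E2f2 had the lowest level of all members, with 4.58 ± 0.163 TPM under IL-1β falling to 2.62 ± 0.254 TPM (SD, n = 3 each), and its log2 fold change was −0.76. E2f1 and E2f8 were near equal with IL-1β, at a ratio of 1.11 to 1.17 in TPM, and that ratio was 5.27 to 5.57 with the inhibitor. It covers this pair only and leaves out the other E2F genes. Among those, E2f3, which is no member, had 54.1 TPM with IL-1β and 51.6 TPM with the inhibitor.

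Ccne2, one of the cyclins E that drive Cdk2 at the start of S phase, stood at 43, 41.4 and 44.7 TPM with IL-1β and at 16.9, 14.3 and 15.9 TPM with the inhibitor. Its log2 fold change was −1.42 (standard error 0.0526). Its exons share 609 of 3495 bases with Ints8 on the opposite strand, which had −0.57. Ccne1 stood at 43.3, 40.2 and 39.8 TPM and at 20.3, 20.8 and 19.3 TPM, and its log2 fold change of −1 (standard error 0.0578) lay on the cutoff itself. In 5 of the 14 alternatives it dropped below the cutoff, with values from −1 to −0.95, among them those without replicate 1 of IL-1β (−0.95) and without replicate 3 of IL-1β plus NP-G2-044 (−0.97).

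**Figure D4:**
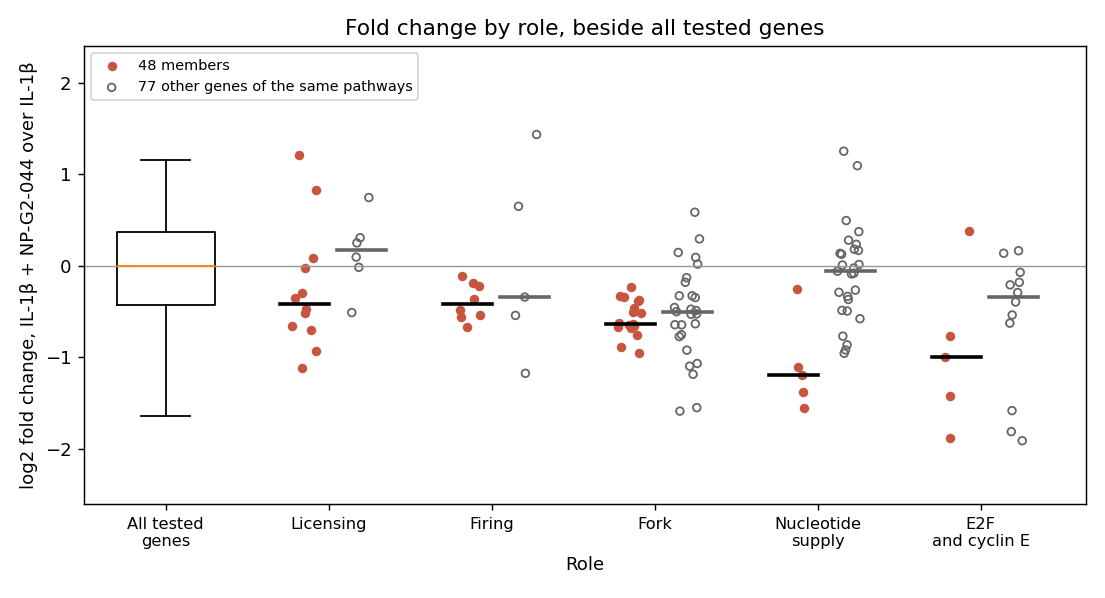
Log2 fold change by role, with a filled point for each of the 48 members, an open point for each of 77 other genes of the same pathways and a short line for each median; the box of all tested genes spans the quartiles and its whiskers the central 90%. The members' medians run from −0.41 in licensing to −1.19 in nucleotide supply, while the other nucleotide genes centre on −0.06.

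A second list of 77 genes of the same pathways was written without looking at their values. All 77 were tested, and 48 fell, 20 rose and 9 did not pass the same edgeR criterion on the adjusted p, beside the 39.8% and 40.2% of all tested genes. Past both cutoffs 9 were lower (11.7%) and 3 higher (3.9%), against 10.1% and 6.48% of all tested genes, so the share of lower genes lay near the background. The median log2 fold change was −0.33. By role it was 0.17 over 6 other licensing genes, −0.34 over 5 firing genes, −0.50 over 27 fork and chromatin assembly genes, −0.06 over 27 nucleotide genes and −0.34 over 12 control genes.

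Of the 9 lower genes, 3 act in control of the cell cycle. Ccna2, cyclin A of S phase and G2, stood at 170, 171 and 177 TPM with IL-1β and at 44.7, 45.2 and 45.1 TPM with the inhibitor, a log2 fold change of −1.91 (adjusted p = 1.41e-46 from edgeR). Its exons share 510 of 4083 bases with Exosc9 on the opposite strand, which had 0.57. E2f7, the partner repressor of E2f8, stood at 23.7, 25.9 and 25.3 TPM and at 7.55, 6.65 and 6.68 TPM, a log2 fold change of −1.81 (adjusted p = 1.77e-36 from edgeR). Fbxo5, an inhibitor of the anaphase-promoting complex, had −1.58 (adjusted p = 1.08e-34 from edgeR). The other 6 were Top2a, Clspn, Rnaseh2c, Ticrr, Uhrf1 and Chtf18. Top2a, the topoisomerase that untangles sister DNA, had −1.59, and Clspn, the claspin of the fork checkpoint, had −1.55. Rnaseh2c had −1.18, and its exons share 426 of 1715 bases with Kat5 on the opposite strand, which had −0.16. The firing factor Ticrr had −1.17, Uhrf1, which carries DNA methylation through replication, had −1.10, and Chtf18 had −1.07.

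The 3 higher genes were Recql4, Rrm2b and Tk2. Recql4, a helicase linked to replication start, stood at 15.9, 17.1 and 16.6 TPM with IL-1β and at 44.2, 41.3 and 42.9 TPM with the inhibitor, a log2 fold change of 1.43 (adjusted p = 7.02e-35 from edgeR). Its exons share 422 of 4342 bases with Mfsd3 on the opposite strand, which had 0.20. Rrm2b encodes the alternative small subunit of ribonucleotide reductase, which is not tied to S phase and is a known target of p53. It stood at 5.66, 6.44 and 6.62 TPM and at 14.3, 14.5 and 15 TPM, a log2 fold change of 1.25 (adjusted p = 1.31e-24 from edgeR). It rose while Rrm2 fell, and the ratio of Rrm2 to Rrm2b in TPM went from 13.3 to 16 down to 2.06 to 2.08. Tk2, the mitochondrial thymidine kinase, stood at 17.9, 19.8 and 19.9 TPM and at 38.3, 40.3 and 41.8 TPM, a log2 fold change of 1.09 (adjusted p = 1.59e-25 from edgeR). Its rise was opposite to the fall of cytosolic Tk1, and the ratio of Tk1 to Tk2 went from 13.2 to 14.3 down to 2.46 to 2.67.

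**Figure D5:**
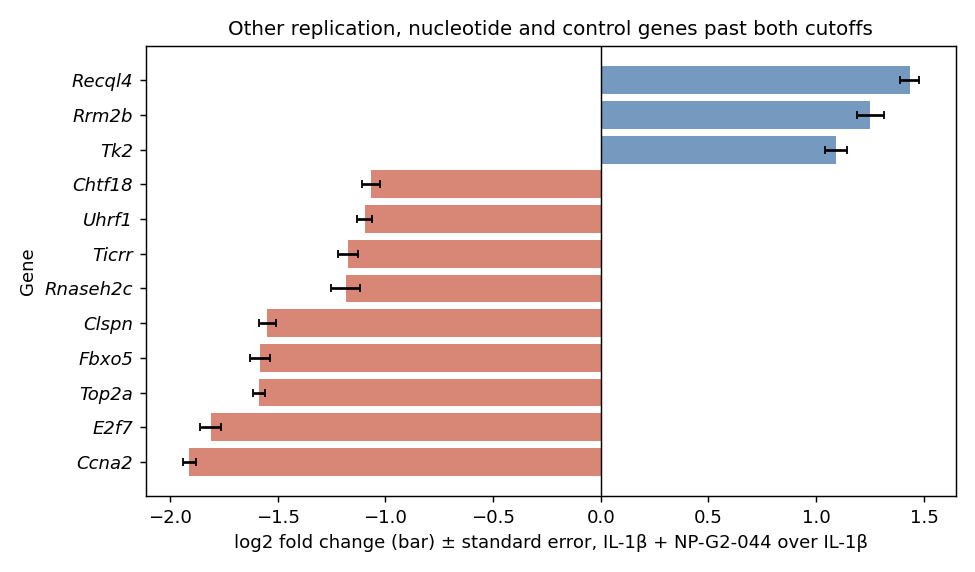
Log2 fold change with standard error of the 12 genes outside the 48 that passed both cutoffs. Ccna2, E2f7, Top2a, Fbxo5 and Clspn are the lowest, and Recql4, Rrm2b and Tk2 are above 1.

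The rest of nucleotide metabolism did not share the size of the fall of Rrm1, Rrm2, Tyms and Tk1. Of the 27 other nucleotide genes 12 fell, 10 rose and 5 did not pass, beside 39.8% lower and 40.2% higher among all tested genes. These counts on the adjusted p lay near that background. None was lower and 2 were higher past both cutoffs, where 10.1% and 6.48% of all tested genes passed. Close to the cutoff were Ctps2, a CTP synthase, with −0.95, Samhd1, which degrades deoxynucleotides, with −0.92, Dctpp1 with −0.86 and Dck, the deoxycytidine kinase, with −0.77. Along de novo purine synthesis Ppat fell with −0.37 and Paics with −0.49, Gart, Adsl and Atic rose with 0.14, 0.23 and 0.18, and Pfas did not pass with −0.02. At the branch to guanine nucleotides Impdh2 had −0.58, Impdh1 0.28 and Gmps −0.08. The pyrimidine synthesis genes Cad, Dhodh and Umps fell with −0.26, −0.33 and −0.49.

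The fold changes were also set beside the E2F words. The 15 members with a word had a median log2 fold change of −0.52, with none lower and 1, Cdt1, higher past both cutoffs. The 24 members with a window but no word had −0.61, with 6 lower and none higher past both cutoffs. Among tested genes that are no members, 467 with a word had a median of −0.06 and 8.35% lower past both cutoffs, and 9129 without one had 0.01 and 9.46%. These are descriptions without a test.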

How the data were processed

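RNA-seq libraries numbered 6, 3 per group, with groups and replicate numbers taken from the sample titles. The submitters' processing notes name cutadapt, HISAT2 2.0, StringTie and build mm10, with no role or order; for the annotation, counting options and strandedness, the sources used here give nothing. The authors deposited 1 table of expected counts (estimated reads per gene, not normalized, 10.17% to 11.06% not whole), TPM and FPKM. FPKM values and the authors' group means were deposited too and were not used.

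Expected counts were rounded to whole numbers. After filterByExpr at its minimum of 10 and TMM scaling they were tested with edgeR 4.0.16 (R 4.3.3) by quasi-likelihood, 3 against 3, with Benjamini-Hochberg adjustment over 11983 genes. Both cutoffs follow the results text of the paper, an adjusted p under 0.05 together with a log2 change larger than 1 either way. Levels are the deposited TPM. The absence of overlap was read from counts per library total. Steps were tested on simulated data. Alternatives used DESeq2 1.42.0, limma 3.58.1, other scalings and filters, the replicate number as a block, and each library left out.

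The 48 genes and all lists were chosen with earlier results of these data known; the 77 further genes were listed without their values. Values per library are given for members past both cutoffs and, per role, the 2 lowest and the highest fold changes, and others were named after their values were seen. Exon overlaps and positions come from GENCODE vM21 (GRCm38), promoters from RefSeq GRCm38.p6. The lowest count of any of the 48 genes in a library was 97 reads, and precision is lowest there.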

Additional observations from a re-analysis of the deposited data

How the results depend on the processing

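Each count and median was recomputed under 14 alternatives, and no direction reversed. Of 671 values of single members under an alternative, 666 kept their call past both cutoffs together, and the other 5 are those of Ccne1. On the adjusted p alone 8 values of 4 genes changed sides, those of Gins3 and Dbf4 with single libraries left out and those of Mcm2 (lost) and Mcm7 (gained) under limma, so that 42 to 44 members were lower and 3 or 4 higher. Members past both cutoffs numbered 7 or 8 lower and 1 higher throughout. The numbers do not pair the samples (correlations of same-numbered deviations were −0.093, −0.024 and 0.026), and with the replicate block 7 members were lower and 1 higher past both cutoffs, with a median of −0.549. The medians moved by more than the spread between replicates in these cases. Limma on log2(TPM + 0.1) gave −0.586 over all members, −0.445 in licensing, −0.666 in fork and −1.229 in nucleotide supply genes, and limma on log2(TPM + 1) gave −0.44 in licensing. Keeping only genes that reached 10 CPM in 3 or more libraries gave −0.44 in licensing, −0.388 in firing, −0.659 in fork and −1.219 in nucleotide supply genes, and tests fewer genes. With each library left out the fork median ran from −0.637 to −0.598. The cause of the TPM shifts was not tested.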
